A study of Mus musculus with 8 samples.

Results

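CT4 is 1 of the 4 groups of connective tissue (CT) nuclei, CT1 to CT4, in the cell type labels that the authors deposited for the petrous temporal bone (PTB). Its members were the nuclei with the label CT4, matched by library and barcode to the raw counts. The labels rest on the authors' clustering of the same expression data. There were 809 CT4 nuclei among the 31076 labelled PTB nuclei of 15 types, and among the 79313 labelled nuclei of both tissues of the study. They numbered 214 in WT replicate 1, 164 in Tbx1+/- replicate 1, 215 in WT replicate 2 and 216 in Tbx1+/- replicate 2, and values of the 4 libraries are given in this order throughout.

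The study compared wild-type (WT) mice with littermates that carry 1 functional copy of Tbx1 (Tbx1+/-), a transcription factor gene of the chromosomal interval that is deleted in 22q11.2 deletion syndrome. Single-nucleus RNA sequencing was made of the PTB, the bone around the inner ear, at postnatal day 5.5, with 2 libraries of each genotype. All mice were on the C57BL/6J background, and the Tbx1+/- mice were heterozygous throughout the body, not in CT cells alone. Each library pooled 5 mice, so that the 4 libraries, and not the nuclei or the mice, were the replicates. The study measured its nuclei in separate batches of mice, and the replicate number in the labels is read here as that batch, which the labels do not state.

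RNA of single nuclei was read at its 3′ end and counted as unique molecular identifiers (UMIs). The PTB libraries held 66835028 to 88677309 UMIs, and the CT4 nuclei of a library held 934522, 758015, 1024027 and 1088487. The median CT4 nucleus had 3964, 4013.5, 4312 and 4413 UMIs, 2171, 2245, 2263 and 2305.5 detected genes, and 1.5%, 1.12%, 0.665% and 0.727% mitochondrial UMIs. In 9 CT4 nuclei the barcode also occurred in another PTB library, where a pair of libraries shared 11 to 26 barcodes. The counts were not corrected for RNA that was free in the droplets. The level of a gene is given as CPM, its UMIs per 1000000 UMIs of the summed nuclei of a type in a library, and "the other nuclei" are the labelled PTB nuclei of the 14 other types, summed in the same library.

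Connective tissue around a growing bone holds fibroblast-like cells that secrete fibrillar collagens, fibronectin and proteoglycans. Where cartilage gives way to bone, chondrocytes enlarge and secrete collagen X, and the matrix is cut by metalloproteinases of bone-forming cells and by osteoclasts, the multinucleate cells that resorb bone. Runx2 drives both chondrocyte enlargement and osteoblast formation, and hedgehog ligands from enlarging chondrocytes act on neighbouring cells through Ptch1 and the Gli factors.

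The CT label was first set against its markers. Col3a1, the chain of the fibrillar collagen III, was at 558, 464, 239 and 232 CPM in CT4. In the other nuclei it was at 974, 743, 433 and 371 CPM, so that CT4 was lower in every library, and by its mean CT4 ranked 12 of 15 types. CT1 had 1693 CPM and CT1 to CT3 together had 1251 CPM. Vcan, which encodes the proteoglycan versican, was at 105, 88.4, 85.0 and 41.3 CPM in CT4, rank 13 of 15, against 834 CPM in CT1 to CT3. Gpc3, a cell-surface proteoglycan gene, was at 185, 154, 90.8 and 139.6 CPM, rank 8 of 15, against 526 CPM in CT1 to CT3. All 3 of these CT markers were lower in CT4 than in CT1 to CT3 by over 1.5-fold in each library. Over all 10595 measured genes (those with a mean of at least 10 CPM in the labelled nuclei), 8.14% were lower by that limit and 3.92% were higher. Acan, which encodes the cartilage proteoglycan aggrecan, was at 103, 135, 113 and 110.2 CPM in CT4 and 84.9 to 124 CPM in the other nuclei, while matured chondrocytes had 1333 CPM. The CT markers thus set CT4 apart from the sum of CT1 to CT3 by being lower, not higher. The limit of 1.5-fold was applied to that sum and not to each CT type. With nuclei thinned to equal depth, Col3a1 had a UMI in 41.01%, 39.1%, 20.2% and 20.6% of CT4 nuclei. In CT3 alone the shares were 50.1%, 47.6%, 32.2% and 31.5%. For Vcan they were 3.84% to 8.79% in CT4 and 22.8% to 25.99% in CT3. The group is called CT4 here without a claim that its nuclei were of connective tissue. Whole-profile likeness was taken as Pearson's r of log2(mean CPM + 1) over the 10595 genes. It is a description, since genes are not independent and all types share the same libraries. CP1, a chondrocyte progenitor type, and the hypertrophic chondrocyte/osteoblast type were both at 0.915 and CT3 at 0.913, which differ little. CT1 was at 0.875, CT2 at 0.843 and osteoclasts at 0.773. Within single libraries r ran from 0.884 to 0.905 for CP1 and the hypertrophic type, and from 0.872 to 0.896 for CT3. The order depended on the measure. With each gene centred on its mean over the 15 types, CT3 was at 0.276, the hypertrophic type at 0.233, matured chondrocytes at 0.207, CP1 at 0.0842 and CT1 at -0.119.

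**Figure D1:**
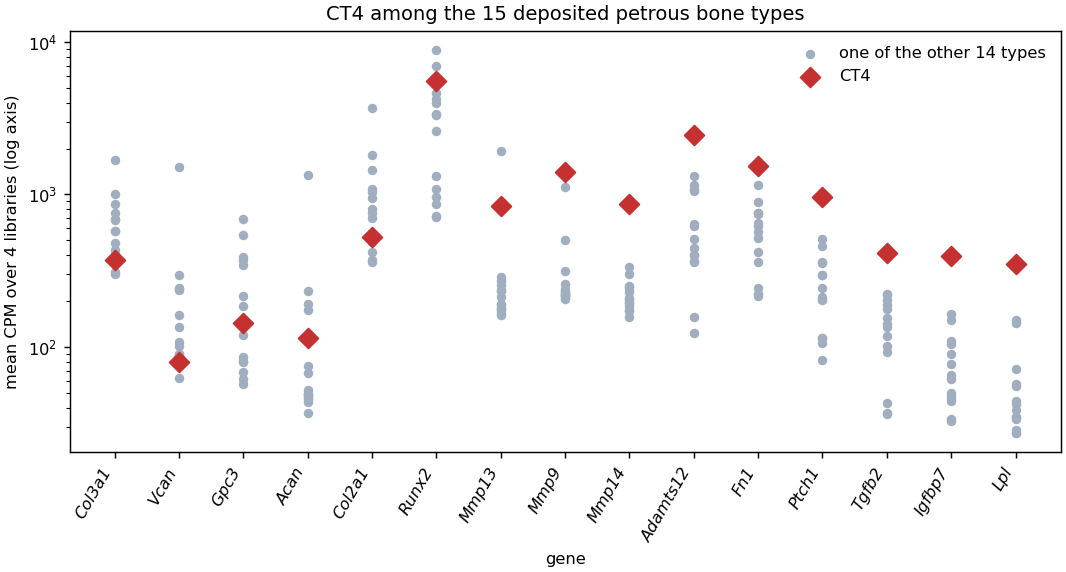
Mean CPM over the 4 PTB libraries (log axis) of 15 genes named in the text, with CT4 as a red diamond and each of the other 14 types as a grey point. CT4 lies low among the types in Col3a1 and Vcan, second to the hypertrophic type in Mmp13, and above all other types in Mmp9, Mmp14, Adamts12, Fn1, Ptch1, Tgfb2, Igfbp7 and Lpl.

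The genes that led CT4 were taken by the size of their log2 ratio to the other nuclei. They had to be at 50 CPM or more in the CT4 sum of each library and higher there than in the other nuclei. Because the types were clustered on such genes, the differences between types are described and were not tested. Slco2b1 (ENSMUSG00000030737, chr7:99657804-99711340, minus strand of GRCm38), which encodes an organic anion transporter, was at 307, 313, 399 and 365 CPM in CT4 and 9.02 to 12.5 CPM in the other nuclei. The mean log2 ratio was 4.94, and the next type, the hypertrophic one, had 26.2 CPM. Stac2 (ENSMUSG00000017400, chr11:98036623-98053462, minus strand), an adaptor that binds voltage-gated calcium channels, was at 142, 148, 187 and 146 CPM, with 4.25 to 5.43 CPM in the other nuclei and a log2 ratio of 4.71. The next type, CT3, had 36.4 CPM. In both genes the 4 libraries of CT4 lay close to each other. The gap to the other nuclei follows from the choice of the genes by that ratio.

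Channels and carriers were among the other leading genes. Cacna1a, the pore subunit of P/Q-type calcium channels, was at 877, 792, 1087 and 898 CPM (log2 ratio 4.44). Kcnq3, a subunit of the potassium channel of the M-current, was at 1049, 807, 1379.8 and 1047 CPM with a log2 ratio of 3.60. The glutamate transporter gene Slc1a1 was at 220.4, 222, 258 and 327 CPM (log2 ratio 4.42). For these 3 genes the next type was matured chondrocytes, at 147, 319 and 32.8 CPM. Slc9a9, a sodium/proton exchanger of endosomes, was at 839, 1067, 1209.9 and 1016 CPM, and Slc7a7, a cationic amino acid transporter subunit, at 287, 215, 271 and 232 CPM (log2 ratios 3.14 and 3.09). Plcg2, a phospholipase C of receptor signalling, was at 269.7, 240.1, 367 and 315 CPM and had its next level, 84.1 CPM, in osteoclasts. Gadd45a, a growth arrest gene that responds to DNA damage, was at 93.1, 77.8, 106 and 101 CPM. The remaining leading genes were Fbxo40, Adam23, C030034L19Rik, Gm16183, A430010J10Rik and 4430402I18Rik, with log2 ratios from 2.95 to 3.93. All 15 but Adam23 were above each of the 14 other types in each of the 4 libraries. Adam23 was at 563, 600.3, 871 and 530.1 CPM in CT4 against a mean of 598 CPM in CT3, and led in 3 of the 4 libraries. Over all measured genes CT4 had the highest mean of the 15 types in 7.32%, a looser measure than the top place in each library. The 15 genes were chosen by their ratio, so that their rank cannot be weighed against that share.

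**Figure D2:**
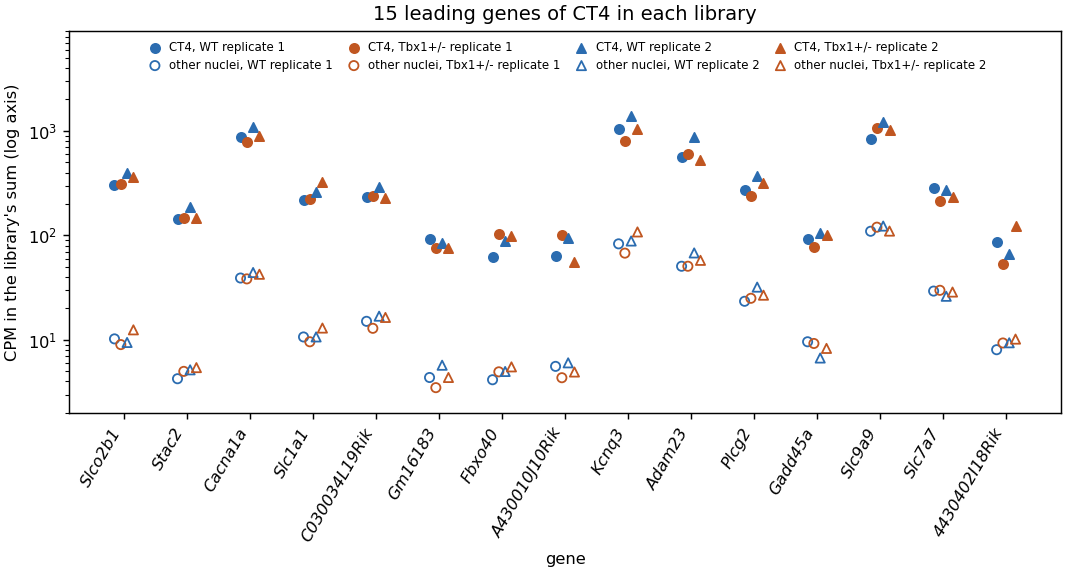
CPM (log axis) of the 15 leading genes of CT4 in each library. Filled symbols are the CT4 sums and open symbols are the other labelled PTB nuclei of the same library. Circles are replicate 1, triangles replicate 2, blue WT and orange Tbx1+/-. The filled and open symbols do not overlap in any of the 15 genes, which were chosen for a high ratio of CT4 to the other nuclei.

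Against CT1 to CT3 alone the same rule added Tnfrsf21, which encodes the death receptor DR6, at 166, 168, 149 and 199 CPM in CT4 (log2 ratio to CT1 to CT3 3.27). Against the hypertrophic type it added Trabd2b, a membrane protease gene of the Wnt pathway, and Adgrb3, an adhesion G-protein-coupled receptor gene. Adgrb3 was at 801, 863, 889.6 and 868 CPM in CT4, the highest mean of the 15 types, with a log2 ratio to the hypertrophic type of 3.57, and that of Trabd2b was 3.86.

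Most CT4 nuclei held a UMI of at least 1 of 4 leading genes. Slco2b1 had a UMI in 53.3% to 64.7% of the CT4 nuclei of a library. In osteoclasts the share was 2.11% to 4.69%, in CT1 it was 1.69% to 2.16% and in the hypertrophic type 5.22% to 9.60%. After each nucleus was thinned to 1000 UMIs, so that depth was equal, the share in CT4 was 24.0% to 29.4%. Cacna1a had a UMI in 77.8% to 81.7% of CT4 nuclei, Kcnq3 in 44.0% to 48.4% and Stac2 in 36.6% to 46.5%, so that Kcnq3 and Stac2 were each seen in under 50% of the nuclei of every library. In osteoclasts, which were deeper (a median of 4963 to 7105 UMIs per nucleus, against 3964 to 4413 in CT4), the shares were 4.45% to 13.2%, 6.79% to 10.1% and 5.27% to 8.96%. At 1000 UMIs each, Cacna1a had a UMI in 48.2% to 54.2% of CT4 nuclei and 0.937% to 2.55% of osteoclasts, with 5.48% to 7.13% in CT2 and 4.35% to 6.21% in CT3 (unthinned 17.3% to 25.1% and 16.5% to 23.0%). Kcnq3 had one in 29.0% to 30.9% and 1.71% to 2.94%, with 10.9% to 13.3% in CT3. Stac2 had one in 12.5% to 17.7% and 0.936% to 1.34%, with 2.80% to 3.98% in CT3. At that depth Adam23 was seen in more CT3 than CT4 nuclei in WT replicate 1 (35.9% against 31.8%). The same held in Tbx1+/- replicate 1 (40.1% against 32.0%) and WT replicate 2 (41.3% against 38.7%). Of Slco2b1, Stac2, Kcnq3 and Cacna1a, none had a UMI in 4.19% to 5.14% of CT4 nuclei and all 4 had one in 10.4% to 18.1%. Among the other nuclei, 68.8% to 72.8% had none of the 4 and 0.0468% to 0.0807% had all 4. The 4 were taken from the leading genes of CT4, though not as the first 4 by rank. The contrast with the other nuclei follows in part from that choice.

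Matrix proteases came next. Of 18 measured genes of proteases and their inhibitors, 4 were higher in CT4 than in the other nuclei by over 1.5-fold in each library and 2 were lower, where 3.91% of all measured genes were higher and 9.55% were lower. These shares are the background of each count of list members against the other nuclei below. The median log2 ratio of the list was 0.16, against -0.07 over all measured genes. Mmp9 (ENSMUSG00000017737, chr2:164940780-164955850, plus strand), the gelatinase that osteoclasts and cartilage-resorbing cells secrete, was at 2112, 1321, 1045 and 1165 CPM in CT4. The other nuclei had 325 ± 89.6 CPM (SD, n = 4), CT1 to CT3 had 239 CPM, the hypertrophic type 499 CPM and osteoclasts 1116 CPM. WT replicate 1 was the highest of the CT4 libraries, and CT4 was above every other type, osteoclasts included, in each of the 4 libraries. Mmp14 (ENSMUSG00000000957, chr14:54431612-54445364, plus strand), a membrane-bound collagenase, was at 1038, 966, 731 and 749 CPM in CT4 and at 225 ± 45.8 CPM (SD, n = 4) in the other nuclei. The next type was osteoclasts at 332 CPM, and CT4 was above every other type in each library. Adamts12 (ENSMUSG00000047497, chr15:11064790-11349231, plus strand), a secreted protease of cartilage matrix proteins, was at 2112, 2289, 2921 and 2476 CPM in CT4 and at 551 ± 18.3 CPM (SD, n = 4) in the other nuclei, and the next type, CP4, had 1311 CPM. Mmp13 (ENSMUSG00000050578, chr9:7272514-7283331, plus strand), the collagenase of hypertrophic cartilage and osteoblasts, was at 1029, 690.0, 769.5 and 859 CPM in CT4. The hypertrophic type was higher, at 1923 CPM, and CT1 to CT3 were lower, at 197 CPM. The 2 lower members were Mmp16, a further membrane-bound protease gene, at 256, 297, 267 and 249.9 CPM (log2 ratio -1.97), and Adamts2, which trims procollagen (log2 ratio -0.80). Against the hypertrophic type 3 of the 18 genes were higher and 7 lower, where 4.36% and 6.57% of all measured genes were.

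**Figure D3:**
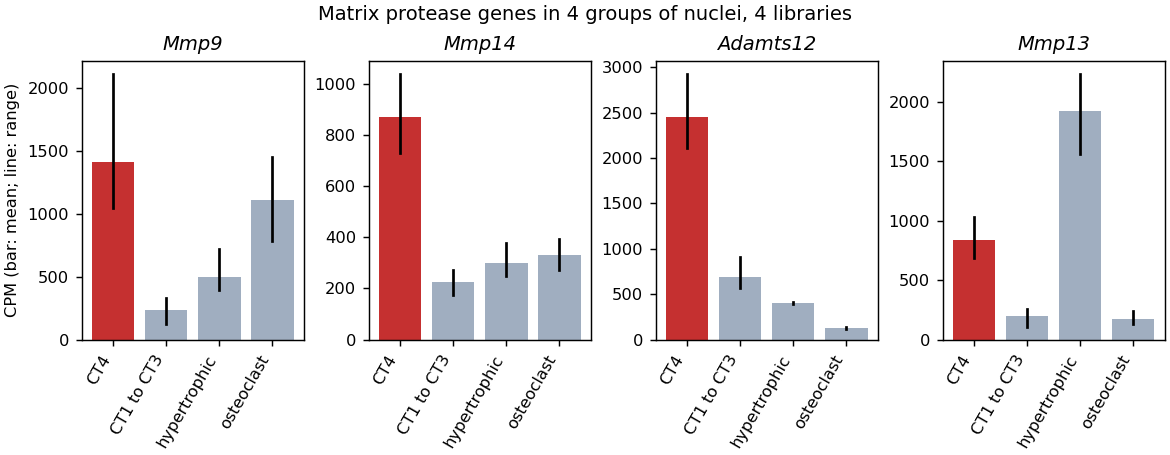
CPM of 4 matrix protease genes in CT4, CT1 to CT3 summed, the hypertrophic chondrocyte/osteoblast type and osteoclasts; bars are means over the 4 PTB libraries, lines run from the lowest to the highest library, and axes start at 0. CT4 has the highest bar for Mmp9, Mmp14 and Adamts12, and the hypertrophic type has it for Mmp13.

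The promoters of these proteases are shown because the genes were high in the same nuclei. Runx2, a factor of the RUNX family, was higher there than in CT1 to CT3. It was not over 1.5-fold above the other nuclei in each library. The sequences are those of RefSeq on GRCm38.p6, the 250 bases before the annotated start. Capitals mark the core letters of RUNX factor binding, TGTGGT, read on the opposite strand as ACCACA. No entry for Mmp9 was in the table used.
Mmp13, chr9:7272264-7272513, plus strand: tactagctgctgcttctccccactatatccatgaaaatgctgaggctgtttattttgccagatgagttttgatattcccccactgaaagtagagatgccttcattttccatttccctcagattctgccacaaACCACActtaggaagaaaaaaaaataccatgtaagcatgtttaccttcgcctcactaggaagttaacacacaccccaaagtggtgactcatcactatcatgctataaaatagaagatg
Mmp14, chr14:54431348-54431597, plus strand: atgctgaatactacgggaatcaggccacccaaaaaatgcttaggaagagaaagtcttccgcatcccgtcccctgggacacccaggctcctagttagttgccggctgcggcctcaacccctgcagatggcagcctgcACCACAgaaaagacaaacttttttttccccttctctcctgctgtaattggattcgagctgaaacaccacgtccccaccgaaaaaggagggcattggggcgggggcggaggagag
Adamts12, chr15:11064523-11064772, plus strand: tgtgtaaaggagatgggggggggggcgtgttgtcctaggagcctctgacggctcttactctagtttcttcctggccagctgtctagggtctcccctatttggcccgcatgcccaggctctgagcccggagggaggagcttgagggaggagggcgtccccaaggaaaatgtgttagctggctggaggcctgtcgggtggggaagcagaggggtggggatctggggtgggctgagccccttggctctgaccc
These letters occurred on either strand in 2 of the 3 windows, and in 3832 of 27025 RefSeq promoter windows of the same length (14.2%). Of the 15 leading genes, 9 had an entry, and 0 of these windows held the letters. A match is a description of the sequence and not a site of binding.

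Since Mmp9 marks osteoclasts, the osteoclast genes were read beside it. Of 13 measured members of the osteoclast list, Mmp9 was the 1 member higher in CT4 than in the other nuclei, a sum that includes osteoclasts, and 9 were lower. Against CT1 to CT3, Mmp9 was again the 1 higher member, and 0 were lower, where 3.92% of all measured genes were higher and 8.14% lower. Ctsk, the collagen-cutting cathepsin of osteoclasts, was at 464, 431, 425 and 371 CPM in CT4 and at 4606 CPM in osteoclasts. Acp5, tartrate-resistant acid phosphatase, was at 288, 223, 198 and 198 CPM in CT4 and at 1356 CPM in osteoclasts. Atp6v0d2, a proton pump subunit, was at 30.0, 34.3, 12.7 and 23.9 CPM in CT4 against 2500.3 CPM, and the fusion gene Dcstamp was at 7.49, 6.60, 4.88 and 3.67 CPM against 333 CPM. The summed list was at 1846 to 3035 CPM in CT4 and 1659.7 to 2035 CPM in the other nuclei, against 13395 to 14894 CPM in osteoclasts, and no member was at 0 in CT4. Mmp9 made up 56.6% to 69.6% of that sum in CT4 and 12.6% to 20.7% in the other nuclei. Without it the other 12 members summed to 922, 836, 801 and 721 CPM in CT4, below the 1451 to 1723 CPM of the other nuclei in every library. In the 116, 86, 119 and 113 CT4 nuclei that had no UMI of 8 other osteoclast genes (Atp6v0d2, Dcstamp, Ocstamp, Oscar, Tnfrsf11a, Csf1r, Itgb3 and Nfatc1), Mmp9 was at 2229.9, 1240.1, 981 and 1275 CPM and Mmp14 at 1066, 899, 758 and 759.7 CPM. In all CT4 nuclei Mmp9 was at 2112, 1321, 1045 and 1165 CPM. Ctsk, which was not among the 8, was at 466, 467, 281 and 344 CPM in the nuclei with none of them. With nuclei thinned to 1000 UMIs each, Ctsk had a UMI in 35.3%, 35.8%, 24.2% and 33.6% of CT4 nuclei. In every library this lay within the range of CT1, CT2, CT3, CP1, the hypertrophic type and osteoblasts, and the same held for Acp5. That range was 33.7% to 37.7% for Ctsk in WT replicate 1, against 90.3% in osteoclasts. The part of osteoclast RNA in the Mmp9 level was not tested. Mmp9 had a UMI in 87.0% to 95.8% of CT4 nuclei of a library and, at 1000 UMIs each, in 54.5% to 70.4%. At that depth the share was 13.2% to 28.8% in CT1 (40.4% to 66.3% unthinned) and 49.6% to 64.4% in osteoclasts (91.9% to 96.6% unthinned). In the hypertrophic type it was 37.9% in WT replicate 1 and 31.0% in Tbx1+/- replicate 1 (75.9% and 72.4% unthinned). The thinned share was higher in CT4 than in osteoclasts in 3 of 4 libraries, and in Tbx1+/- replicate 1 it was 57.8% in CT4 and 59.2% in osteoclasts.

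Other matrix genes were divided. Fn1, which encodes fibronectin, was at 1671, 1322, 1456 and 1719 CPM in CT4 and 575 ± 66.2 CPM (SD, n = 4) in the other nuclei, and CT4 was above every type in each library. Of the 20 genes of fibrous matrix it was the 1 member higher by over 1.5-fold in each library, and 9 were lower. The cartilage matrix list had 3 of 14 measured genes higher and 1 lower, beside 3.91% and 9.55% of all measured genes. Matn4, a matrilin, was at 339, 256, 191 and 153 CPM (log2 ratio 0.95), the hyaluronan link protein gene Hapln1 at 135, 75.2, 102 and 91.9 CPM (0.95) and the chondromodulin gene Cnmd at 207, 109, 138 and 153 CPM (1.10). Col9a3 was the lower member, and Col2a1, the main collagen of cartilage, was at 611, 631, 375 and 497 CPM, with 3664 CPM in matured chondrocytes. Of 7 measured chondrocyte factors, Sox5 at 621, 646, 839.8 and 757 CPM (log2 ratio 1.02) and Sox6 at 1790.2, 1459, 1683 and 1729 CPM (1.37) were higher. Both act with Sox9 on cartilage genes, and Sox9 itself was at 24.6, 40.9, 28.3 and 23.0 CPM, against 33.1 ± 4.94 CPM (SD, n = 4) in the other nuclei. Sox6 ranked 2 of the 15 types.

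Runx2, the transcription factor of bone formation, was at 5253, 4977, 5447 and 6606 CPM in CT4. CT1 to CT3 had 1521 CPM and the hypertrophic type 6974 CPM, and CT4 ranked 3 of 15. Runx2 was not over 1.5-fold above the other nuclei in each library. The genes that osteoblasts use to build and mineralize bone were mostly not high against the other nuclei. Of 17 measured osteoblast genes 0 were higher in CT4 than in the other nuclei and 7 were lower, though against CT1 to CT3 there were 3 higher and 0 lower. Over all measured genes 3.91% were higher and 9.55% lower than in the other nuclei, and 3.92% higher and 8.14% lower than in CT1 to CT3. Sp7, the osteoblast factor that acts after Runx2, was at 123, 113, 85.0 and 122 CPM (log2 ratio -0.61 to the other nuclei), and CT1 to CT3 had 47.1 CPM. Alpl, the alkaline phosphatase of mineralization, was at 170.1, 170.2, 129.9 and 171 CPM against 319 ± 13.9 CPM (SD, n = 4) in the other nuclei. The log2 ratio was -1.01 for the bone sialoprotein gene Ibsp, -1.90 for Smpd3, a sphingomyelinase of mineralization, and -2.23 for Phex, a phosphate regulator. Bglap, the osteocalcin gene, was at 323, 191, 186 and 213 CPM, against 391 ± 111 CPM (SD, n = 4). In the hypertrophic cartilage list Mmp13 was the 1 of 15 genes that was higher, and 6 were lower, among them Panx3 (-1.52) and Mef2c (-1.19). Against CT1 to CT3, 5 of the 15 were higher and 1 was lower. The osteocyte list had 0 of 8 higher and 3 lower.

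Among signalling genes, 4 of 11 measured hedgehog members had their highest mean of the 15 types in CT4, as did 7.32% of all measured genes. Ptch1, the hedgehog receptor and itself a target of the pathway, was at 823, 842, 953 and 1212 CPM in CT4 and 279.9 ± 16.8 CPM (SD, n = 4) in the other nuclei. The next type was matured chondrocytes at 509 CPM, and CT4 lay above every type in each library. Gli2, a transcription factor of the pathway, was at 349.9, 401, 379.9 and 567 CPM, with 312 CPM in the next type, CP1. Gli1, a direct target, was at 52.4, 51.5, 30.3 and 47.8 CPM (log2 ratio 0.98), above every type in 3 of 4 libraries. Sufu, which restrains the Gli factors, was at 99.5, 96.3, 129 and 105 CPM. Of the 11 genes 3 were higher by over 1.5-fold in each library (Ptch1, Gli2 and Sufu) and 1, the co-receptor gene Boc, was lower (-1.80), beside 3.91% and 9.55% of all measured genes, and the median was -0.00014. Against CT1 to CT3, 2 of the 11 were higher and 3 lower, beside 3.92% and 8.14% of all measured genes. The 9 letters GACCACCCA of Gli binding were in 0 of 10 promoter windows of the list, and in 57 of 27025 windows (0.211%).

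The TGF-beta list had 3 of 16 genes higher and 2 lower, where 3.91% and 9.55% of all measured genes were. The ligand gene Tgfb2 was at 428, 396, 396 and 437 CPM in CT4 and 113 ± 13.6 CPM (SD, n = 4) in the other nuclei, above every type in each library. The ligand gene Tgfb1 and the target Ccn2 had log2 ratios of 0.92 and 0.82. The receptor gene Tgfbr1 and the latency protein gene Ltbp1 were lower, at -1.74 and -2.01. Against CT1 to CT3, 2 of the 16 were higher and 5 lower, beside 3.92% and 8.14% of all measured genes. In the insulin-like growth factor list, with 2 of 12 higher and 0 lower, Igfbp7, a secreted binding protein gene, was at 400.2, 352, 369 and 454 CPM, against 65.9 ± 9.91 CPM (SD, n = 4) in the other nuclei. Against CT1 to CT3, 1 of the 12 was higher and 4 were lower, where 3.92% and 8.14% of all measured genes were. Igf2, the growth factor gene, was at 1224, 972, 791 and 684 CPM, and was above every type in 3 of 4 libraries. Among 7 Notch genes Maml2, a co-activator, was the 1 that was higher, at 1702, 1664, 1909 and 1894 CPM, and 1 was lower.

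The Wnt list had 2 of 30 genes higher, 11 lower and a median of -0.54, where 3.91% of all measured genes were higher and 9.55% lower, with a median of -0.07. The same shares apply to the counts that follow. Lgr4, a receptor of R-spondins, was at 933, 852, 862 and 1021 CPM and above every type in each library. Dkk2, a secreted Wnt inhibitor gene, and Rspo2, an R-spondin, were among the lower, at -2.45 and -2.17. The BMP list had 0 of 23 higher and 4 lower, with Bmp5 at -2.54, and the FGF list had 0 of 10 higher and 4 lower. Of 13 genes of parathyroid hormone signalling 0 were higher and 1 was lower, Pde4d, a cAMP phosphodiesterase, at 341, 396, 317 and 326 CPM against 1433 ± 129 CPM (SD, n = 4). Among 17 genes of mesenchymal progenitors 2 were higher and 2 lower. Against CT1 to CT3, 0 of the 17 were higher and 4 lower, where 3.92% and 8.14% of all measured genes were. The receptor genes Pdgfra and Pdgfrb of this list had log2 ratios of 0.87 and 1.07 to the other nuclei. Lpl, the lipoprotein lipase that marrow stroma makes, was at 472, 319, 315 and 297 CPM in CT4, with 149 CPM in the next type. It was the 1 of 11 marrow stroma genes that was higher, and 6 were lower. Of 11 genes of mineral and phosphate handling, the phosphate carrier gene Slc20a1 was the 1 that was higher, with a log2 ratio of 1.19, and 5 were lower. Against CT1 to CT3, 4 of the 11 were higher and 0 lower, beside 3.92% and 8.14% of all measured genes. Genes of hypoxia and glycolysis (1 of 12 higher, 0 lower), of immediate early stress (0 of 6 either way) and of the chromosomal interval that matches human 22q11.2 (0 of 25 higher, 1 lower) lay near the other nuclei.

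Genes of the G2 and M phases of the cell cycle were often lower in CT4. Of 40 measured G2/M genes 15 were lower by over 1.5-fold in each library and 1, Ccnb2, was higher, with a median log2 ratio of -0.97, where 9.55% of all measured genes were lower and 3.91% higher. With a pseudocount of 5 CPM in place of 1 the lower ones were 9, and 8.24% of all measured genes. Against CT1 to CT3 18 of the 40 were lower (8.14% of all measured genes) and against the hypertrophic type 25 (6.57%). In S phase 3 of 29 were lower and 0 higher (median -0.71), a share near that of all measured genes. Against CT1 to CT3 6 of the 29 were lower (8.14% of all measured genes) and against the hypertrophic type 14 (6.57%). Cdkn1a, the p21 inhibitor of the cell cycle, was at 83.5, 84.4, 73.2 and 98.3 CPM in CT4 against 34.0 ± 4.60 CPM (SD, n = 4), and Trp53, its activator, was at 59.9, 54.1, 59.6 and 74.4 CPM. Both were above every type in each library. In the apoptosis list 1 of 18 genes was higher, 0 were lower and 5 had their highest mean in CT4, where 3.91%, 9.55% and 7.32% of all measured genes did.

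The 8 genes that were lowest against the other nuclei were Cntn4, Tafa1, Sorcs3, Nell1, Gm44593, Dcc, Mgat4c and Ranbp3l, with log2 ratios from -4.27 to -3.57, and CT4 ranked last of the 15 types in each. Cntn4, a contactin of neurites, was at 26.8, 10.6, 17.6 and 14.7 CPM in CT4, against 303 to 369 CPM in the other nuclei. Nell1, a secreted osteogenic protein gene, was at 10.7, 21.1, 9.77 and 4.59 CPM, and Dcc, the netrin receptor gene, at 18.2, 15.8, 6.84 and 2.76 CPM.

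Markers of other cells were read in CT4 as a check. The summed endothelial list was at 133 to 181 CPM in CT4 and 254 to 281 CPM in the other nuclei, with 0 of 8 genes higher and 1 lower. The immune list was at 113 to 181 CPM in CT4 and 117 to 174 CPM in the other nuclei, with 0 of 8 higher and 1 lower, and the mural list at 125 to 146 CPM in CT4 and 173 to 223 CPM in the other nuclei, with 1 of 5 higher and 2 lower. Erythroid genes were at 368 to 766 CPM in CT4 and 449 to 909 CPM in the other nuclei with 0 of 5 either way, and skeletal muscle genes at 46.9 to 424 CPM in CT4 and 98.2 to 466 CPM in the other nuclei with 0 of 7 either way. Within CT4, muscle genes summed to 424, 410.3, 90.8 and 46.9 CPM and erythroid genes to 757, 766, 509.8 and 368 CPM, higher in both replicate 1 libraries than in both replicate 2 libraries. The neuron, glia, epithelium, meninges and tendon lists had 0 genes higher in CT4 and 3 of 6, 2 of 5, 1 of 4, 4 of 6 and 2 of 4 lower. No measured member of these lists was at 0 UMIs in CT4. The part of free RNA in these levels was not tested.

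The first question for genotype was whether CT4 nuclei differed in number. They were 2.14%, 1.88%, 3.59% and 3.37% of the labelled nuclei of the 4 libraries. The exact 95% binomial intervals ran from 1.87% to 2.45%, 1.61% to 2.19%, 3.14% to 4.10% and 2.94% to 3.84%, and they cover counting error only. The shares were lower in both replicate 1 libraries than in both replicate 2 libraries. In each pair Tbx1+/- was the lower, and the 2 intervals of a pair overlapped. The log2 change was -0.13 (SE 0.44, adjusted p = 0.921 over 15 types, edgeR's quasi-likelihood test with Benjamini-Hochberg adjustment), with 0 of 15 types past a false discovery rate of 0.1. Without Tbx1+/- replicate 1 it was 0.24 and without WT replicate 2 it was 0.29, and leaving out 1 library leaves the 2 replicates unequally filled. With the replicate number as a block the change was -0.14 (SE 0.18, adjusted p = 0.74, edgeR), which did not pass either. Within the CT nuclei the share of CT4 was 10.5%, 10.5%, 20.4% and 27.9%. CT1 had 1315, 878, 332 and 118 nuclei, CT2 had 272, 300, 267 and 259, and CT3 had 239, 213, 239 and 182. This share thus moved with the number of CT1 nuclei, which differed most between the libraries. The log2 odds differed between genotypes by 0.30 (exact two-sided permutation test, p = 0.667, where 2 libraries against 2 allow no p below 0.333). In replicate 1 the difference was 0.00865 and in replicate 2 it was 0.59. With 1 library left out the difference ran from -0.56 to 1.16, so that its sign changed.

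**Figure D4:**
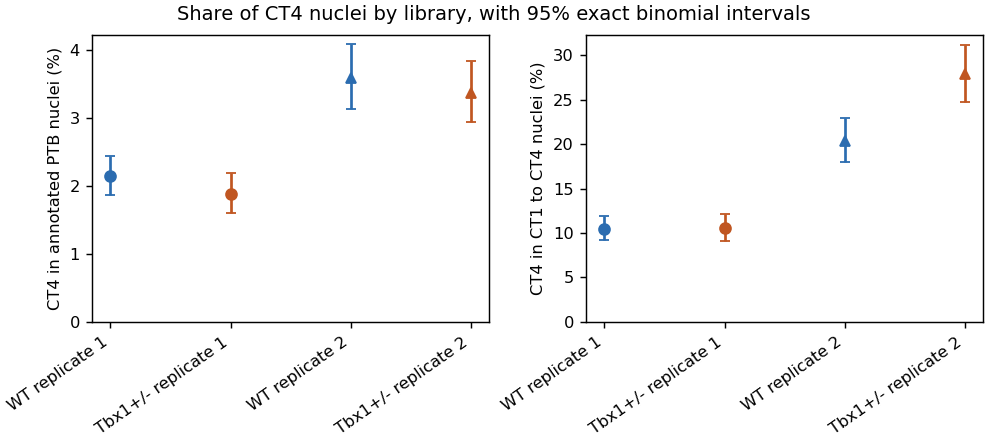
CT4 nuclei as a percentage of labelled PTB nuclei (left) and of CT1 to CT4 nuclei (right) in each library, with exact 95% binomial intervals and axes that start at 0; blue is WT, orange is Tbx1+/-. In both panels the replicate 2 libraries lie above the replicate 1 libraries, and within each pair the Tbx1+/- library is the lower on the left and the higher on the right. The right panel also moves with the number of CT1 nuclei (1315, 878, 332 and 118).

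Tbx1 itself gave few UMIs in CT4. It had 7, 8, 9 and 8 UMIs, a level of 7.49, 10.6, 8.79 and 7.35 CPM, and the Tbx1+/- libraries were not both below the WT libraries. By its mean CT4 ranked 12 of 15 types, and the gene was below the filter of the test. In the other nuclei it was at 39.6, 26.6, 40.4 and 36.6 CPM, lower in Tbx1+/- of both pairs. In CP1 the share of nuclei with a Tbx1 UMI was 17.3%, 12.5%, 19.0% and 17.0%, also lower in Tbx1+/- of both pairs, and it was so too at 1000 UMIs each. In the hypertrophic type it was 14.6%, 10.6%, 14.1% and 13.3%, but at 1000 UMIs each Tbx1+/- was the higher in replicate 2 (3.97% against 3.81%). In CT1 it was 8.97%, 5.81%, 8.43% and 11.9%, so that Tbx1+/- was the lower in replicate 1 and the higher in replicate 2, and the order was the same at 1000 UMIs each. CT3, at 2.82% to 4.18%, was lower in Tbx1+/- in replicate 1 and higher in replicate 2, and at 1000 UMIs each it was 0.689%, 0.7%, 0.456% and 0.968%, higher in Tbx1+/- of both pairs. Osteoclasts, taken as a type that should lack Tbx1, had a UMI in 3.52% to 8.44% of nuclei (0.769% to 1.24% at 1000 UMIs each), and the shares in CT3 and CT4 were not above that range. These differences were not tested, and counts from 3′ ends need not follow the deleted part of an allele.

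The second question was which genes of CT4 differed between the genotypes. UMIs were summed over the CT4 nuclei of each library and compared with edgeR's quasi-likelihood test, with a gene called at an adjusted p under 0.05 and a change above 1.5-fold. Among 10199 genes the number called was 0 (0%). Before adjustment, 276 (2.71%) had a p under 0.05, 134 of them higher in Tbx1+/- (1.31%) and 142 lower (1.39%). DESeq2, run on all genes with a UMI in CT4 and not only on those past edgeR's filter on low counts, also called 0, and before adjustment 36 of its 20491 genes with a p (0.176%) had one under 0.05. With the replicate number as a block edgeR called 3 genes, all lower in Tbx1+/-, and leaving out 1 library gave 2 to 6 calls, the 6 without Tbx1+/- replicate 1. Mmp9 was at a log2 change of -0.37 (SE 0.28), Mmp13 at -0.23 (SE 0.20), Mmp14 at -0.07 (SE 0.21), Runx2 at 0.09 (SE 0.19) and Slco2b1 at -0.08 (SE 0.20), each with an adjusted p of 0.999 or above (edgeR). In all 5 genes the libraries of the genotypes overlapped.

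The 5 genes with the smallest p among the higher ones were Xkr4, Dpysl3, Dmxl2, Fam189a1 and Utp15. Xkr4, a membrane protein gene of the XK family, was at 32.1, 73.9, 22.5 and 56.0 CPM, a log2 change of 1.22 (SE 0.28), adjusted p = 0.999 (edgeR). Both Tbx1+/- libraries lay above both WT libraries, which follows in part from the choice of the gene by its p. The change did not pass the adjustment over all genes. Dpysl3, a cytoskeletal regulator, was at 86.7, 150.4, 75.2 and 133 CPM, a change of 0.78 (SE 0.19), which did not pass either. Among the lower ones the 5 were 4930565N06Rik, Sorbs2os, Gm20616, Gm16351 and Trim12c, of which Trim12c, a TRIM family gene, was at 22.5, 10.6, 26.4 and 7.35 CPM, a change of -1.50 (SE 0.41).

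By list, 0 genes were called in any of these lists. The counts at an unadjusted p under 0.05 are to be read against 1.31% of all genes higher and 1.39% lower. Of 18 tested matrix protease genes 0 were at an unadjusted p under 0.05, with a median change of -0.10, against -0.00541 over all genes. For 10 tested hedgehog genes the median was -0.10. In S phase 3 of 23 were at an unadjusted p under 0.05, all higher, with a median of 0.34. In the G2/M list 0 of 31 were, with a median of 0.24. In the osteocyte list 2 of 7 were, both higher. Dmp1 was 1 of these 2, and it was also higher in osteoclasts and CT1 in Tbx1+/- of both pairs. In the cartilage matrix list 2 of 14 were at an unadjusted p under 0.05, both lower, with a median of -0.22. These are some of the 39 lists. In the 25 tested genes of the interval that matches human 22q11.2 the median was 0.11, with 17 above 0 and 0 at an unadjusted p under 0.05.

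The third question was whether the genotype change in CT4 differed from that in its neighbours. Against CT1 to CT3 the number of genes called by the interaction term of edgeR was 0 among 13567 (0%), and before adjustment 466 (3.43%) had a p under 0.05. DESeq2 called 0, and 68 of its 24875 genes (0.273%) had a p under 0.05. The CT1 to CT3 sum held 1315, 878, 332 and 118 CT1 nuclei in the 4 libraries, so that its make-up differed between them. The part of this in the interaction was not tested. Against the hypertrophic type edgeR called 2 among 13808 (0.0145%), both more positive in CT4, and before adjustment 602 (4.36%) had a p under 0.05. DESeq2 called 0 here too, and 78 of its 24462 genes (0.319%) had a p under 0.05. The 2 genes that edgeR called were Dmp1, a matrix phosphoprotein gene of osteocytes, and Kcnip4, which encodes a protein that modulates potassium channels and was not part of any list. Dmp1 was at 77.0, 141, 43.0 and 89.1 CPM in CT4 and 334, 224, 197 and 215 CPM in the hypertrophic type, and the changes differed by 1.17 on the log2 scale (SE 0.21, adjusted p = 0.00548, edgeR). Without Tbx1+/- replicate 1 the difference was 0.90 and was not called (adjusted p = 0.559, edgeR). Within CT4 Dmp1 was higher in Tbx1+/- of both pairs, by a log2 change of 0.90 that was not called (adjusted p = 0.999, edgeR). Without WT replicate 1 that change was 1.37 and was called (adjusted p = 0.0327, edgeR). Osteoclasts, taken as a type that should lack it, had 99.0, 109, 39.9 and 80.7 CPM, also higher in Tbx1+/- of both pairs. CT1 had 89.0, 145, 59.2 and 82.8 CPM of Dmp1, higher in Tbx1+/- of both pairs too. In CT1 to CT3 together the log2 change was 0.42 (SE 0.46), and its difference from that of CT4, 0.51 (SE 0.23), was not called. Kcnip4 was at 28.9, 39.6, 15.6 and 34.9 CPM in CT4 and 47.5, 52.1, 129 and 36.4 CPM in the hypertrophic type, with a difference of 1.71 (SE 0.35, adjusted p = 0.048, edgeR). Its high value was that of the hypertrophic type in WT replicate 2, and without that library the difference was 0.47 (adjusted p = 1, edgeR). Without WT replicate 1 it was 2.81 (adjusted p = 1.19e-08, edgeR). The call was also lost without Tbx1+/- replicate 1 (adjusted p = 0.184, edgeR) or without Tbx1+/- replicate 2 (adjusted p = 0.359, edgeR), and with RLE factors (adjusted p = 0.0929, edgeR).

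**Figure D5:**
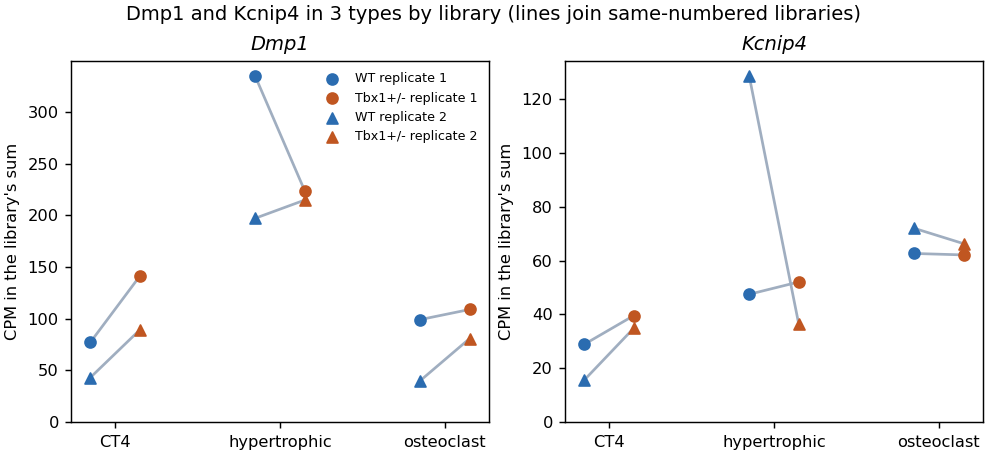
CPM of Dmp1 (left) and Kcnip4 (right) in the sums of CT4, the hypertrophic chondrocyte/osteoblast type and osteoclasts, by library; blue is WT, orange is Tbx1+/-, and grey lines join the libraries of the same number. In CT4 both lines go up in each panel, and the hypertrophic type of WT replicate 2 is the highest value of Kcnip4, at 129 CPM.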

How the data were processed

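The 4 PTB libraries were analysed. The authors made the deposited counts with Cell Ranger 7.0.0 in intron mode on mm10, as raw UMI counts per gene and barcode of 32285 features, and their correction for free RNA is not in them. The cell type labels were the authors', from Louvain clustering, label transfer and manual curation. The members and gene lists were chosen with earlier results of these data known.

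UMIs were summed per library and type in Python 3.11.15 (pandas 2.3.3, scipy 1.17.1, numpy 2.4.6). Types were compared by the mean over libraries of log2(CPM + 1), without a test. Of the features, 32235 (99.8%) had coordinates in GENCODE vM21. Genotypes were compared with edgeR 4.0.16 (filterByExpr, TMM, quasi-likelihood test, Benjamini-Hochberg adjustment) and, as an alternative, DESeq2 1.42.0, in R 4.3.3; edgeR was tested on simulated data. SEs are the log2 change over the square root of F. Doublets were not called; as an alternative, the top 8% of nuclei by UMIs were dropped from each library.

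Named were the study's marker genes and Tbx1, up to 15 genes with the highest and 8 with the lowest log2 ratios to the other nuclei, up to 10 each against CT1 to CT3 and the hypertrophic type, the 5 higher and 5 lower genes of smallest p for genotype, and members of 39 lists; genes outside this rule were named after their values were seen. The replicate number was read as the batch of mice, which the labels do not state, and the deviations of same-numbered libraries from their genotype's mean correlated at 0.198 across 10199 genes in CT4.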

Additional observations from a re-analysis of the deposited data

Results flagged for a closer look

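The genotype change in CT4 differed from that in the hypertrophic chondrocyte/osteoblast type, by the interaction term of edgeR, in 2 genes. For Dmp1 the difference was 1.17 on the log2 scale, with a log2 change of 0.90 in CT4. It was not called by DESeq2 (adjusted p = 1), in nuclei with at least 2000 detected genes (adjusted p = 0.398, edgeR) or without Tbx1+/- replicate 1 (adjusted p = 0.559, edgeR). Osteoclasts of the same libraries, which should lack Dmp1, were also higher in Tbx1+/- in both pairs, as was CT1. The part of free RNA in the result was not tested. For Kcnip4 the difference was 1.71, or 0.47 without WT replicate 2 and 0.67 without the 8% of nuclei with the most UMIs, neither of which was called, and 2.81 without WT replicate 1 (adjusted p = 1.19e-08, edgeR). The call was also lost with RLE factors (adjusted p = 0.0929, edgeR), by DESeq2 (adjusted p = 1) or in nuclei with at least 2000 detected genes (adjusted p = 0.461, edgeR).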

How the results depend on the processing

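With 2 libraries of each genotype, 0 calls do not show that expression in CT4 was unchanged. For genes of CT4 called between genotypes, against 0, there were 4 with no filter on low counts and 3 with the replicate block, and 2 to 6 when each library was left out in turn (4 without WT replicate 1, 6 without Tbx1+/- replicate 1, 2 without WT replicate 2 and 3 without Tbx1+/- replicate 2), while DESeq2, RLE factors, nuclei with at least 2000 detected genes and the set without the 8% of nuclei with the most UMIs gave 0. With a library left out, the lone library of its genotype is assumed to vary like the other genotype. The 3 genes under the block were Bpifa1, Fam155a and A330032B11Rik, all lower in Tbx1+/-. Bpifa1, an airway secretory gene, was at 204, 56.7, 75.2 and 2.76 CPM in CT4 and 155, 44.5, 31.4 and 3.32 CPM in osteoclasts. Fam155a, at 133, 115, 338 and 115 CPM, and A330032B11Rik, at 10.7, 5.28, 69.3 and 13.8 CPM, were high in WT replicate 2 alone. The fourth gene without the filter, Ttr, was at 3.21, 102, 33.2 and 29.4 CPM in CT4 and 4.60, 72.1, 17.8 and 12.2 CPM in osteoclasts. The block left the share of CT4 at -0.14 (adjusted p = 0.74, edgeR) and was fitted for the genes and the share of CT4 alone, since the interaction fits hold the library as a term.

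The interaction with CT1 to CT3, with 0 calls, had 7 with no filter on low counts and 0 to 74 when each library was left out, the 74 without Tbx1+/- replicate 1. That with the hypertrophic type, with 2 calls, had 3 with no filter, 1 with RLE factors, 0 with DESeq2, 0 with at least 2000 detected genes, and 2 to 5 when each library was left out (4 without WT replicate 1, 4 without Tbx1+/- replicate 1, 5 without Tbx1+/- replicate 2). Leaving out each library gave log2 changes of the CT4 share from -0.60 to 0.29, and differences of its log2 odds within CT from -0.56 to 1.16, with -0.27 without WT replicate 1. The cause of these differences was not tested. The CT1 to CT3 sum held 1315, 878, 332 and 118 CT1 nuclei in the libraries. Without Tbx1+/- replicate 1 the only Tbx1+/- sum left was that with 118 CT1 nuclei.

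With a library left out, the mean level of 40 named genes in CT4 moved by at most 1.38-fold (Nell1, without Tbx1+/- replicate 1). The log2 ratio to the other nuclei changed sign in 1 of 160 values, that of Acan from 0.14 to -0.04 without Tbx1+/- replicate 1. The leading and the lowest genes were chosen with the same sign of that ratio in every library, so that theirs could not change. With a pseudocount of 5 CPM in place of 1, 12 of 40 log2 ratios moved by more than their SD over the 4 libraries, each nearer to 0, such as Slco2b1 to 4.52 and Stac2 to 4.01.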
